A study of Mus musculus with 2 samples.

Results

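Luminal epithelial cells came from prostate tissue of a mouse model driven by a human androgen receptor transgene. Among them, 1155 cells with high levels of seminal vesicle genes were examined. They were selected on their own measured expression, from 7701 luminal cells that carried the barcode ending 2 (15742 cells in the series as a whole). The gate required transcripts of Epcam and Krt8, a Krt5 value under 1 and no Ptprc, on the natural log scale of the deposited table. The score of a cell was the mean log value of 4 genes, Pate4, Ceacam10, Sva and Spinkl, and the members were the 15% of gated cells with the highest score. The other 6546 gated cells served as the comparison. Because the score chose the members, every difference between members and the remaining gated cells below is a description of how this selection looks, and no test was applied to it.

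The mice were R26 mTmG/hAR:Osr1 Cre/+ animals, in which Cre made under the Osr1 locus recombines both the human androgen receptor transgene (hARtg) and a reporter, so that hARtg and membrane-bound green fluorescent protein (mGFP) come on in the same lineage. Prostatic intraepithelial neoplasia (PIN) tissue came from mice of 6 months and prostatic adenocarcinoma (PCa) tissue from mice of 12 months, and both carried the same alleles on a mixed C57BL/6 and 129S1/SvImJ background. Each tissue gave 1 droplet library of 3' ends, with no replicate and no control mice without the transgene. Cell barcodes in the pooled table end in 1 or 2, here called set 1 (6332 cells) and set 2 (9410 cells), and neither the labels nor the column names tie an ending to a tissue, so no cell was assigned to PIN or PCa. Barcodes shared by both endings numbered 67, of which 7 belonged to members and 45 to the remaining gated cells.

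The seminal vesicle grows from the Wolffian duct, whereas the prostate buds from the urogenital sinus. Both are androgen-dependent glands. The lining cells of the mouse seminal vesicle pour out a small set of very abundant proteins. Among them are the seminal vesicle secretory (SVS) proteins, some of which form the copulatory plug. Others are caltrin-like proteins of the PATE family and secreted proteins such as SVA and CEACAM10. The prostate instead secretes probasin, spermine-binding protein and the transglutaminase TGM4 that cross-links SVS proteins of the plug.

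The SVS genes sit together on chromosome 2 and the Pate genes on chromosome 9, so the sequences before their start sites are shown here for 4 SVS genes and for Pate6, chosen with their values known. Coordinates and sequences are those of RefSeq on GRCm38.p6, the assembly of the mm10 build used by the authors. Each line holds the 250 bases upstream of the start site, 5' to 3' on the strand of the gene, and capitals mark the 6-base motif AGAACA, the core of the androgen and glucocorticoid receptor element, or its reverse complement TGTTCT.
Svs3b, chr2:164256644-164256893, minus strand: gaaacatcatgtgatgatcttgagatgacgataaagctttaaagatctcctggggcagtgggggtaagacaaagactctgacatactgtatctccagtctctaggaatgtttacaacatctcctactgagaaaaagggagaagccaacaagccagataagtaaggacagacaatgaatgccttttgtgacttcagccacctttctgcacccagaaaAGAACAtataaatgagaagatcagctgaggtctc
Svs3a, chr2:164289017-164289266, plus strand: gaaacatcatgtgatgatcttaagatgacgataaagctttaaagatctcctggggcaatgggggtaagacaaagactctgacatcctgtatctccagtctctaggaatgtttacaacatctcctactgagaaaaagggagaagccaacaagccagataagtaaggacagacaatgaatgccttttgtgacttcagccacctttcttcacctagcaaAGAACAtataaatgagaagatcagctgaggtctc
Svs4, chr2:164278308-164278557, minus strand: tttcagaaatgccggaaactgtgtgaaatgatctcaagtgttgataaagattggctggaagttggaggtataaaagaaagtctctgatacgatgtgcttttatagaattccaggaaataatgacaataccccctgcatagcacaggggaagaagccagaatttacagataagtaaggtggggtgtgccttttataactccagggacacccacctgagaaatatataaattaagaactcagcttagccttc
Svs5, chr2:164332515-164332764, plus strand: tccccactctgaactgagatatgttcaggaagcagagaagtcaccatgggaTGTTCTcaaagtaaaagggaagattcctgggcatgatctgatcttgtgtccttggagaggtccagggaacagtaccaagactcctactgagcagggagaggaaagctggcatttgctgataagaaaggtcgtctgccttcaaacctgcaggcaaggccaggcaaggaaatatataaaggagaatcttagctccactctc
Pate6, chr9:35790113-35790362, minus strand: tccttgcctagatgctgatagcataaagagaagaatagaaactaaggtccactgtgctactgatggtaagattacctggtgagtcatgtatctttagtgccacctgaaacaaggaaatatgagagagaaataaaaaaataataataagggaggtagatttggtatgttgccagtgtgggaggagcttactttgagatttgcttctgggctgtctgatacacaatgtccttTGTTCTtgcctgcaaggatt
The motif was searched on both strands, and AGAACA and TGTTCT are reverse complements, so no site was counted under both names. In Svs3b and Svs3a it began 34 bases before the start site, in Svs5 199 bases and in Pate6 20 bases before it. Pate4 had no window in the table. Of the 4 Pate windows there, those of Pate1, Pate2, Pate6 and Pate14, only that of Pate6 held the motif. It was not in the Svs4 window. The windows of Svs3a and Svs3b had the same letter at 244 of 250 positions, or 97.6%. Of the 8 matched promoters of Svs2, Svs3a, Svs3b, Svs4, Svs5, Svs6, Sva and Ceacam10, 6 held the motif at least once, against 16.1% of all 32851 promoter windows of the same length in the table. The motif of Svs6, 203 bases before its start site, lay in a stretch of letters shared with the Svs5 window. The like windows of Svs5 and Svs6, and of Svs3a and Svs3b, are not separate instances, so these 6 are not independent matches. None of the 8 held AGAACA followed after 3 bases by TGTTCT, which was present in 3 of all windows. These matches describe letters only.

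The score formed a continuum with no gap at its limit. Among the 7701 gated cells of set 2 the score was 0 in 3812 cells (49.5%), its median was 0.0371 and its highest value 3.86. The lowest member scored 0.4497 and the highest remaining cell 0.4495. Across the limit the cells were alike, as the 20 members just inside had a median of 14.5 Pate4 UMIs and the 20 cells just outside a median of 13, where a UMI (unique molecular identifier) marks 1 captured RNA molecule.

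Pate4, a small secreted protein also called SVS7, carried the selection. It gave the largest term of the score in 1073 members (92.9%), and in 1057 members (91.5%) its term alone would have passed the limit. Ceacam10 gave the largest term in 36 members, Sva in 28 and Spinkl in 18. Without Pate4 in the score, only 477 of the 1155 members (41.3%) stayed in the top 15%, whereas at least 97.1% stayed when any other gene was left out. Summed over cells, Pate4 reached 5991 UMIs per 1000000 UMIs (CPM) in members and 45.9 CPM in the remaining cells. At least 1 Pate4 UMI was found in 98.4% of members and 38.9% of the remaining cells. Within the members the number of Pate4 UMIs per cell had a median of 51, a 90th percentile of 479 and a highest value of 3038.

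The other genes of the score were restricted to smaller numbers of members. Ceacam10, a secreted carcinoembryonic antigen relative, stood at 371 CPM in members and 1.63 CPM in the remaining cells, and was found in 16.1% and 2.96% of them. Sva, a secreted protein of the seminal vesicle, stood at 280 CPM against 1.54 CPM, in 27.9% and 2.25% of cells. Spinkl, a Kazal-type protease inhibitor relative, stood at 22.6 CPM against 0.425 CPM and was detected in 3.12% of members. These levels rested on few cells, since the 10 members richest in each gene held 52.8% of the Ceacam10 UMIs, 51.7% of the Sva UMIs and 82.1% of the Spinkl UMIs.

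Genes outside the score followed the same division. The SVS genes encode secreted proteins of the seminal vesicle, only some of them clotting proteins, and were not used to choose the cells. Svs3b stood at 2878 CPM (95% exact Poisson interval 2859 to 2896) in members and 84.7 CPM (83.1 to 86.2) in the remaining cells. Svs3a stood at 2006 CPM and 71.5 CPM. The counts of Svs3a and Svs3b, which are near-identical copies, may be split between them by the counting. Svs4 stood at 1811 CPM against 65.7 CPM, and Svs5 at 1490 CPM against 13.5 CPM. Svs6, at 145 CPM against 1.01 CPM, and Svs2, the main clotting protein, at 115 CPM against 2.37 CPM, were lower in level but as widely separated. On the log2 scale the differences of the 6 genes ran from 4.78 for Svs4 to 7.17 for Svs6. With Pate4 left out of the score, the log2 ratio of Svs3b was 2.74, the log2 ratio of Svs3a 2.84 and the log2 ratio of Svs4 3.93. With Ceacam10 left out, the log2 ratio of Svs2 was 2.99, the log2 ratio of Svs6 3.74 and the log2 ratio of Svs5 4.57. All intervals here cover counting error only, because there was 1 library.

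**Figure D1:**
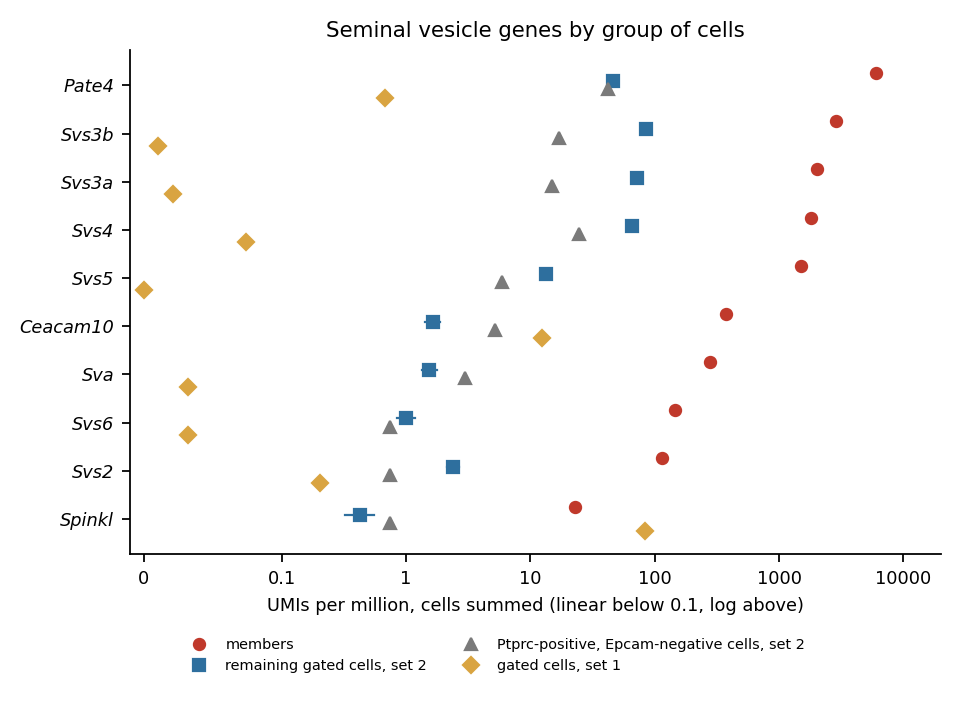
Summed level of 10 seminal vesicle genes in CPM (horizontal axis, linear below 0.1 and logarithmic above) in members, remaining gated cells of set 2, Ptprc-positive Epcam-negative cells of set 2 and gated cells of set 1. Lines on members and remaining cells are 95% exact Poisson intervals, mostly narrower than the symbols. Members lie far to the right for every gene but Spinkl, whose highest level is in set 1.

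Of the 15 genes in the list of seminal vesicle secretory genes outside the score, 11 were in the table under the listed name and 8 reached 10 CPM on either side. Their median log2 ratio of members over remaining cells was 4.95, and 7 of the 8 were at least 2-fold higher. Across all 7114 genes that reached 10 CPM, the median was -0.08, 86 genes were at least 2-fold higher in members (1.21%) and 96 were at least 2-fold lower (1.35%). With Pate4 left out of the score, these counts were 33 and 4. The other 2 listed genes of the 8 differed less. Serpine2, a secreted inhibitor of serine proteases abundant in the seminal vesicle, stood at 978 CPM in members and 376 CPM in the remaining cells, and the log2 ratio of Serpine2 went from 1.38 to 0.54 with Pate4 left out of the score. For the lysozyme gene 9530003J23Rik (Lyzf1) the levels were 201 CPM and 139 CPM, a log2 ratio of 0.53 that turned to -0.43 without the 116 members of highest score. Of the 3 genes under 10 CPM, Pate2 had 195 UMIs in members and 167 in the remaining cells, Sval2 had 16 and 2, and Sval1 had 5 and 35.

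Members lay above cells of other types in every SVS gene, while the remaining cells lay near or above them. The gate fixed for this purpose (Ptprc above 0, Epcam and Krt8 at 0) held 39 cells of set 2, so a wider gate without the limit on Krt8, chosen after the numbers were seen, was used, which held 168 cells with a median of 7482 UMIs. Endothelial and fibroblast gates were added in the same way. With every cell thinned to 3000 UMIs, Svs4 was found in 41.3% (95% Clopper-Pearson interval 38.4 to 44.2) of members, 9.03% (8.34 to 9.75) of remaining cells, 9.03% (5.03 to 14.7) of Ptprc-positive cells, 2.78% (0.577 to 7.90) of endothelial and 3.59% (1.33 to 7.66) of fibroblast cells. Svs3b was found in 61.8%, 6.59%, 4.52%, 3.70% and 4.19% of these groups in the same order, and Svs5 in 26.6%, 3.22%, 1.29%, 5.56% and 1.20%. Unthinned, Svs4 was found in 70.9% of members, 28.0% of remaining cells and 15.5% of Ptprc-positive cells. In summed level the remaining cells stood above the Ptprc-positive cells for Svs3b (84.7 CPM against 17.1 CPM), Svs3a (71.5 CPM against 14.9 CPM) and Svs4 (65.7 CPM against 24.6 CPM). The Svs3b UMIs of the remaining cells were uneven, with a median of 0 per cell, a highest value of 489 and 92.9% in the top 655 cells. What part of the values in the remaining cells was expression and what part free RNA was not tested. For Pate4, whose low level in the remaining cells the rule fixes, the thinned shares were 93.0% of members, 10.4% of remaining cells and 12.3% of Ptprc-positive cells. Cells under 3000 UMIs were left out, 17 members, 55 remaining cells and 13 Ptprc-positive cells.

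The members were unequal among themselves. The 116 members with the most UMIs of a gene, 10% of all, held 53.8% of the Pate4 UMIs and 64.7% of the Svs3b UMIs, but 86.5% of those of Svs4, 94.5% of those of Svs5 and 96.6% of those of Svs6. For Svs5 the 10 richest members alone held 61.4%. At least 5 UMIs of Pate4 were present in 1074 members, of Svs3b in 710, of Svs4 in 506, of Svs5 in 288, of Sva in 165, of Svs2 in 116, of Ceacam10 in 104, of Svs6 in 76 and of Spinkl in 19. Of the 288 members with Svs5, 275 (95.5%) also had Svs3b, and these were 38.7% of the members with Svs3b. With Pate4, which the selection favours and which 1074 of all members had, Svs5 was found together in 281 members. Of the 76 members with Svs6, 72 (94.7%) had Svs5. Overlaps among the 4 score genes are shaped by the score itself, as a high value of 1 gene suffices to enter, and nothing is read from them.

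Counting the 4 score genes with the 6 SVS genes, 848 members (73.4%) had at least 5 UMIs of 2 or more genes, 283 (24.5%) of 5 or more, and 10 members (0.866%) of 9. In the remaining cells 788 had at least 5 UMIs of 1 gene or more and 17 (0.260%) of 5. As a share of all UMIs of a cell, the 10 genes had a median of 0.484% in members and 0.00713% in the remaining cells, and the highest member reached 52.0%. Because the 4 score genes are among the 10, the rule itself sets part of the contrast in these counts and shares. In 45 members these 10 genes made up 10% or more of all UMIs, in 316 between 1% and 10%, and in 794 under 1%. No remaining cell reached 10%, and 16 lay between 1% and 10%. Those 16 had 10273 CPM of Svs3b and 3392 CPM of Svs4 but 199 CPM of Pate4, so cells with abundant SVS transcripts also existed below the score limit.

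Rank correlations across the 1155 members, which share a library and differ in depth, are given as a description. Spearman's rho was 0.85 between Svs3a and Svs3b, 0.63 between Svs3b and Svs4, 0.56 between Svs3b and Svs5, and 0.50 between Pate4 and Svs3b. The other score genes were lower with Svs3b, at 0.32 for Sva, 0.12 for Ceacam10 and -0.17 for Spinkl. Spinkl was below 0 with each of the 6 SVS genes, from -0.07 for Svs6 to -0.17 for Svs4. Of the 19 members with at least 5 Spinkl UMIs, 5 had at least 5 of Pate4 and 1 at least 5 of Svs3b. A high Spinkl value suffices to enter without Pate4, so the score shapes these Spinkl values, and nothing is read from them. Pate4 with the total UMIs of the cell gave -0.04.

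The positions of these genes add a second description that the rule did not use. On chromosome 2, 6 SVS genes lie within 98.5 kb (chr2:164235929-164334394). Toward the lower coordinate lie Wfdc15b and Wfdc12, which encode whey acidic protein domain protease inhibitors. Wfdc15b stood at 828 CPM in members and 166 CPM in the remaining cells, and Wfdc12 at 235 CPM and 66.2 CPM, log2 ratios of 2.31 and 1.82. On the other side Slpi, an antileukoprotease 21.3 kb from the start of Svs5, had 5.84 CPM and 2.24 CPM. Genes farther out showed small differences, with log2 ratios of 0.53 for Matn4, -0.24 for Sdc4, 0.24 for Sys1 and 0.11 for Pigt. These neighbours of the SVS genes other than Wfdc15b were named for their position, after their values were seen.

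A pair of further genes among the 15 with the largest differences proved to be Pate relatives. The table lists them as D730048I06Rik and A630095E13Rik, which RefSeq names Pate6 and Pate14. Searching all 14 Pate genes that RefSeq places on chromosome 9, over 1032 kb, by symbol and synonym found 7 in the table. Beside Pate4 (chr9:35607093-35611885), Pate6 stood at 1168 CPM in members and 87.6 CPM in the remaining cells, a log2 ratio of 3.74, and was found in 83.9% and 22.8% of them. Pate14, 1029 kb from the start of Pate4, stood at 236 CPM and 13.4 CPM, a log2 ratio of 4.14. Pate1, listed as Gm17252, stood at 50.2 CPM and 6.06 CPM. Pate2, whose first bases overlap the end of Pate4 so that their reads may be confused, stood at 6.02 CPM and 1.20 CPM. Pate8, listed as Gm17689, had 15 UMIs in members and 1 in the remaining cells. Pate9, listed as Gm5615, differed least in level, 105 CPM and 74.7 CPM, although 60.4% of members and 13.5% of the remaining cells held a UMI of it. Pate1, Pate8 and Pate9 were named after their values were seen, for their family.

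**Figure D2:**
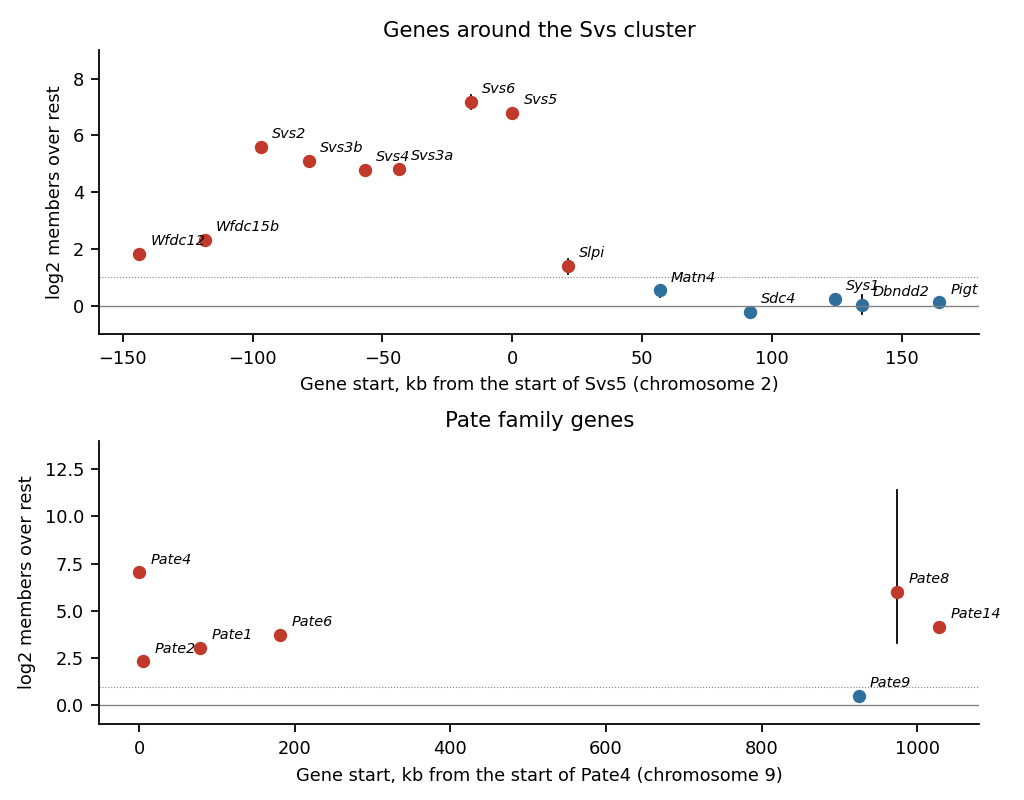
Log2 ratio of summed level in members over remaining gated cells, for genes with over 100 UMIs within 200 kb of Svs5 (top, with starts given in kb from the start of Svs5) and for the 7 Pate genes in the table (bottom, in kb from the start of Pate4). Vertical lines are 95% conditional binomial intervals, the dotted line marks 2-fold, and red points lie above it. The SVS genes stand between 4.78 and 7.17, with Wfdc15b and Wfdc12 lower and the genes from Matn4 outward near 0.

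Members were luminal epithelial cells by their markers. The summed level of the 5 luminal markers was 19590 CPM in members and 17898 CPM in the remaining cells, with Krt8 at 8063 CPM and 8148 CPM. Krt8 and Epcam were part of the gate. Cd24a, a luminal surface protein, stood at 1910 CPM and 1166 CPM. Of the 4 basal markers, Krt14 stood at 9.92 CPM and 43.5 CPM and Krt15 at 7.97 CPM and 36.2 CPM. Apart from those of seminal vesicle epithelium, markers of other cell types were at low summed levels on both sides. The leukocyte list gave 21.8 CPM in members and 39.9 CPM in the remaining cells, with single cells from 0 to 7970 CPM and 0 to 53071 CPM and Ptprc at 0 by the gate, against 22949 CPM in the Ptprc-positive cells. The endothelial list gave 7.35 CPM and 26.6 CPM, smooth muscle 3.43 CPM and 7.12 CPM, neuroendocrine 1.54 CPM and 0.345 CPM, and the fibroblast list 134 CPM and 278 CPM, mostly Dcn. The 5 epididymis markers in the table summed to 0.927 CPM and 0.943 CPM, and 3 of them were at 0 in members. The seminal vesicle epithelium list, which shares Pate4, Ceacam10 and Sva with the score, summed to 9943 CPM and 128 CPM. Whether the members came from prostate or from seminal vesicle epithelium was not tested. Depth differed between the sides, as members had a median of 24507 UMIs and 4282 genes per cell and the remaining cells 16654 UMIs and 3564 genes, with a median mitochondrial share of 5.39% and 5.21%. The part of depth in the results was not tested beyond the thinned and depth-matched values given below.

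Both the transgene and the reporter were present in nearly every member. hARtg, listed as ARQ, was detected in 99.6% of members and 96.1% of the remaining cells, at 1630 CPM and 1440 CPM, a log2 ratio of 0.18 (95% conditional binomial interval 0.16 to 0.19). The log2 ratio of hARtg was 0.084 with Pate4 left out of the score. mGFP, listed as EGFP, was detected in 99.8% and 99.5%, at 11036 CPM and 9622 CPM, a log2 ratio of 0.20 (0.19 to 0.20). All 45 members with 10% or more of their UMIs in seminal vesicle genes held UMIs of both, at 1565 CPM of hARtg and 9775 CPM of mGFP. Across members hARtg showed no ordering with Pate4 (rho 0.02). Cells of the Ptprc-positive gate, which should lack most of this RNA, held hARtg at 76.8 CPM and mGFP at 426 CPM. A UMI of hARtg was found in 33.9% and of mGFP in 86.3% of them, and in 42.9% and 89.9% of endothelial cells. These groups differ in depth. In thinned cells hARtg was found in 96.0% (95% Clopper-Pearson interval 94.7 to 97.1) of members. The shares were 18.7% (12.9 to 25.8) of Ptprc-positive and 23.1% (15.6 to 32.2) of endothelial cells. For mGFP the thinned shares were 99.6%, 61.3% and 63.9% in the same order. Detection was thus more frequent in members, most clearly for hARtg. A UMI in a single cell does not by itself tell that cell from these other types.

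Of 12 listed Wolffian duct transcription factors in the table, 4 reached 10 CPM, with log2 ratios from -0.13 to 0.15. None of the 4 differed 2-fold between members and remaining cells, which are both of set 2. This was near the shares of all genes at least 2-fold higher (1.21%) or lower (1.35%). Pax2, a paired-box factor of the duct, had 1 UMI among all members and 4 among the remaining cells, Pax8 had 0 and 13, and Emx2 0 and 3. With 0 UMIs the count allows up to 3 UMIs, or 0.0927 CPM, in the members. Gata3, expressed in duct and luminal cells alike, stood at 131 CPM and 143 CPM. The posterior homeobox genes Hoxa9, Hoxa10 and Hoxa11 stood at 61.0, 78.0 and 15.1 CPM in members and at 66.7, 84.9 and 13.6 CPM in the remaining cells. In the gated cells of set 1 these genes were lower, at 20.04, 17.51 and 1.806 CPM. A pattern shared by both sides of set 2 leaves no trace in the log2 ratios, and the difference between the sets was not tested. Of the 12 prostate transcription factors 10 reached 10 CPM, with a median log2 ratio of -0.07. The prostate homeobox genes Hoxb13 and Hoxa13 stood at log2 ratios of -0.61 and -0.65, with Hoxb13 at 25.1 CPM in members and 38.5 CPM in the remaining cells. In the gated cells of set 1 Hoxb13 was higher, at 132.6 CPM, and Hoxa13 lower, at 5.417 CPM. Foxa1, a pioneer factor of prostate epithelium, stood at 63.2 CPM against 80.6 CPM, and Sox9 at 214 CPM against 164 CPM.

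Prostate secretory genes differed in both directions. Of 12 listed, 11 reached 10 CPM, 6 were at least 2-fold lower and none was 2-fold higher in members, beside the 1.35% and 1.21% of all genes. The median log2 ratio was -2.12. It turned to 0.22 with Pate4 left out of the score, as did the sign for Msmb, Sbp and Sbpl, and the log2 ratio of Pbsn went to -0.16. Probasin (Pbsn) stood at 62.6 CPM in members and 418 CPM in the remaining cells, Sbp, spermine-binding protein, at 572 CPM and 2966 CPM, its relative Sbpl at 14.6 CPM and 118 CPM, and Msmb, beta-microseminoprotein, at 8.43 CPM and 89.6 CPM. A Pbsn UMI was found in 23.2% of the deeper members and 23.2% of the remaining cells, and with cells thinned to 3000 UMIs in 4.57% (3.43 to 5.95) and 9.97% (9.25 to 10.7). For Sbp the unthinned shares were 75.1% and 70.8%. The summed levels of the remaining cells rested on few cells, since their top 655 cells held 98.5% of the Pbsn UMIs and 97.7% of the Sbp UMIs. With both sides limited to cells that held 5 or more hARtg UMIs, 1101 members and 5752 remaining cells, the log2 ratio of Pbsn moved from -2.74 to -1.17 and the median log2 ratio of prostate secretory genes to -1.17, while the log2 ratio of Sbp stayed near its first value, at -2.34. Apof, an apolipoprotein, and Azgp1, a secreted zinc-binding glycoprotein, were higher in members, at 133 CPM against 73.4 CPM and 278 CPM against 142 CPM. Tgm4 stood at 672 CPM and 888 CPM, a log2 ratio of -0.40, but was found in more members than remaining cells (73.2% and 50.4%). The log2 ratio of Tgm4 turned to 0.79 among cells with 5 or more hARtg UMIs, to 0.21 when every cell weighed the same and to 0.090 in thinned cells. Agr2, a disulfide isomerase of mucus secretion, stood at 23.5 CPM and 145 CPM.

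Among other genes named by size, Ren1, 9530053A07Rik, 9530002B09Rik, Spink1, Spink5, Sparc, Igfbp7, Gja1, Sfn and Dcn completed the 15 lowest, with log2 ratios from -2.55 for Spink5 to -1.11 for Dcn. Gja1, the gap junction protein connexin 43, stood at 57.5 CPM in members and 145 CPM in the remaining cells and was found in 36.2% and 53.2% of them. Spink5, a protease inhibitor, was found in 2.86% and 2.55%.

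**Figure D3:**
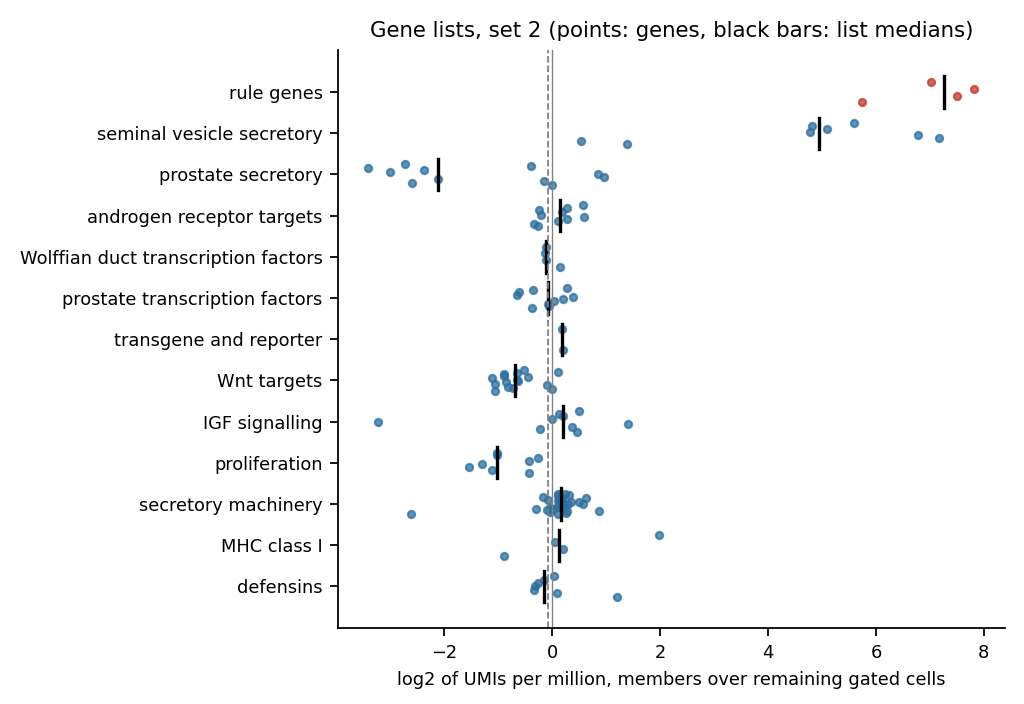
Log2 ratio of summed level in members over remaining gated cells for each gene that reached 10 CPM (points; the 4 score genes in red), by list, with list medians as black bars. The grey dashed line is the median of all 7114 genes, -0.08. Score and seminal vesicle genes lie to the right, prostate secretory genes are spread from -3.41 to 0.97, and Wnt target and proliferation genes lie mostly left of 0.

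Genes of the androgen response outside secretion were close on both sides. Of 12 listed androgen receptor targets 10 reached 10 CPM, with a median log2 ratio of 0.14. None of the 10 differed 2-fold, near the shares of all genes at least 2-fold higher (1.21%) or lower (1.35%). Fkbp5, a co-chaperone induced by steroid receptors, stood at 70.7 CPM in members and 47.9 CPM in the remaining cells, and Zbtb16, a zinc-finger repressor, at 35.4 CPM and 23.4 CPM.

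Wnt target genes, which the study asked about in tumour cells, were lower in members. Of 17 listed, 16 reached 10 CPM, 15 lay below 0 on the log2 scale (66.8% of all genes did) and 3 were at least 2-fold lower (1.35% of all genes), with a median of -0.69 beside -0.08 for all genes. The median was -0.25 with Pate4 left out of the score. Axin2, the feedback scaffold of the pathway, stood at 130 CPM in members and 187 CPM in the remaining cells. The log2 ratio of Axin2, -0.53, stayed between -0.85 and -0.21 under the alternatives tried. Nkd1, another feedback inhibitor, stood at 166 CPM and 261 CPM, Notum, a Wnt deacylase, at 48.8 CPM and 90.8 CPM, Wif1, a secreted Wnt binder, at 190 CPM and 396 CPM, and Ccnd1, cyclin D1, at 167 CPM and 276 CPM. Nearest to no difference were Lgr5, a stem cell receptor, at 28.9 CPM and 27.0 CPM, and Myc, at 272 CPM and 273 CPM. Axin2 was detected in 24.7% (22.2 to 27.3) of thinned members and 37.8% (36.6 to 39.0) of thinned remaining cells.

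Proliferation genes were also lower, all 8 of them below 0 and 5 at least 2-fold, beside 66.8% and 1.35% of all genes, with a median of -1.03. Mki67, the proliferation antigen, had a log2 ratio of -1.03 and was found in 10.6% and 11.3% of cells. Cdk1, the mitotic kinase, stood at 4.67 CPM and 13.6 CPM, while Pcna, a replication clamp, was closer at 37.9 CPM and 45.5 CPM. In the IGF list, 9 of 16 genes reached 10 CPM, with a median of 0.20. Igf1r, the IGF1 receptor, stood at 118 CPM and 83.6 CPM and was found in 81.6% and 65.0% of cells. The binding protein genes Igfbp5 and Igfbp3 went opposite ways, Igfbp5 at 13.0 CPM against 4.92 CPM and Igfbp3 at 2.53 CPM against 23.7 CPM.

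Secretory machinery genes, which move and fold proteins in the endoplasmic reticulum, were slightly higher. Of 32 listed 30 reached 10 CPM, 23 lay above 0 beside 33.2% of all genes, none was 2-fold higher and 1, Agr2, was 2-fold lower, and the median log2 ratio was 0.17. Ssr4, a translocon subunit, stood at 1145 CPM in members and 742 CPM in the remaining cells, Pdia6, a disulfide isomerase, at 450 CPM and 304 CPM, and Sdf2l1, a chaperone cofactor, at 77.8 CPM and 42.6 CPM. The chaperone Hspa5 stood at 2285 CPM and 2117 CPM. Of the 8 integrated stress response genes 6 lay below 0, near the 66.8% of all genes, with a median of -0.09.

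Several surface and secreted proteins outside the seminal vesicle list were among the 15 largest differences. B2m, the light chain of major histocompatibility complex (MHC) class I, was not among those 15 but was the exception in its list. It stood at 7674 CPM in members and 1944 CPM in the remaining cells, a log2 ratio of 1.98, with a median per cell of 177 and 17 UMIs. With Pate4 left out of the score, the log2 ratio of B2m was 0.83 and the log2 ratio of Cd52 1.28. The heavy chains did not follow, as H2-K1 stood at 422 CPM and 408 CPM and H2-D1 at 1098 CPM and 958 CPM. Cd52, a small glycoprotein that the male genital tract also secretes, stood at 2117 CPM and 386 CPM. Gpx3, secreted glutathione peroxidase, stood at 461 CPM and 97.7 CPM (the log2 ratio of Gpx3 was -0.10 with Pate4 left out of the score), and Hamp, the iron hormone hepcidin, at 114 CPM and 18.9 CPM. Within members the rank correlation of B2m with Cd52 was 0.73, with Serpine2 0.61 and with Axin2 -0.44. Leukocyte RNA was low in the same cells, with Cd74 at 11.5 CPM in members and 24.7 CPM in the remaining cells.

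Among genes of other luminal states, Defb50, a beta-defensin, stood at 3648 CPM in members and 1594 CPM in the remaining cells. The alpha-defensin gene Defa20 stood at 378 CPM and 421 CPM. Its near relatives share sequence, so that reads may be split among them. Of the 6 proximal or urethral luminal markers, summing to 2614 CPM and 1537 CPM with a median log2 ratio of 0.0018, 3 lay above 0 and 3 below. Krt4 had a log2 ratio of -1.01 and Krt7 of -0.60. Clu, clusterin, which made up most of the sum, stood at 1967 CPM and 944 CPM and Ly6d at 120 CPM and 46.3 CPM. The log2 ratio of Ly6d was -0.086 with Pate4 left out of the score. The metallothionein Mt1 stood at 1805 CPM and 1228 CPM, whereas Mt3 stood at 341 CPM and 543 CPM and Gulo, which makes ascorbate, at 74.4 CPM and 137 CPM.

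Several of the differences were graded along the score, and others were not. In the 3812 cells with a score of 0 Svs3b stood at 25.4 CPM, in the 2734 cells scoring above 0 but below the limit at 138 CPM, and in the 3 groups of 385 members by rising score at 671, 1573 and 6773 CPM. Svs5 went from 8.38 and 18.1 CPM in the remaining cells to 68.7, 136 and 4556 CPM in the members. B2m went from 1433 and 2404 CPM to 5555, 7254 and 10513 CPM. Axin2 went the other way, from 194 and 181 CPM to 146, 133 and 107 CPM. hARtg changed little, from 1412 and 1466 CPM to 1595, 1614 and 1686 CPM. Within the members some genes had no steady course. By rising score Defb50 stood at 3466, 4111 and 3350 CPM, Clu at 1957, 2094 and 1842 CPM, and Tgm4 at 568, 522 and 953 CPM. Depth was highest in the lowest-scoring members and lower on both sides of them, as the median UMIs per cell were 13655, 22796, 26398, 24507 and 23266 in these 5 groups.

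**Figure D4:**
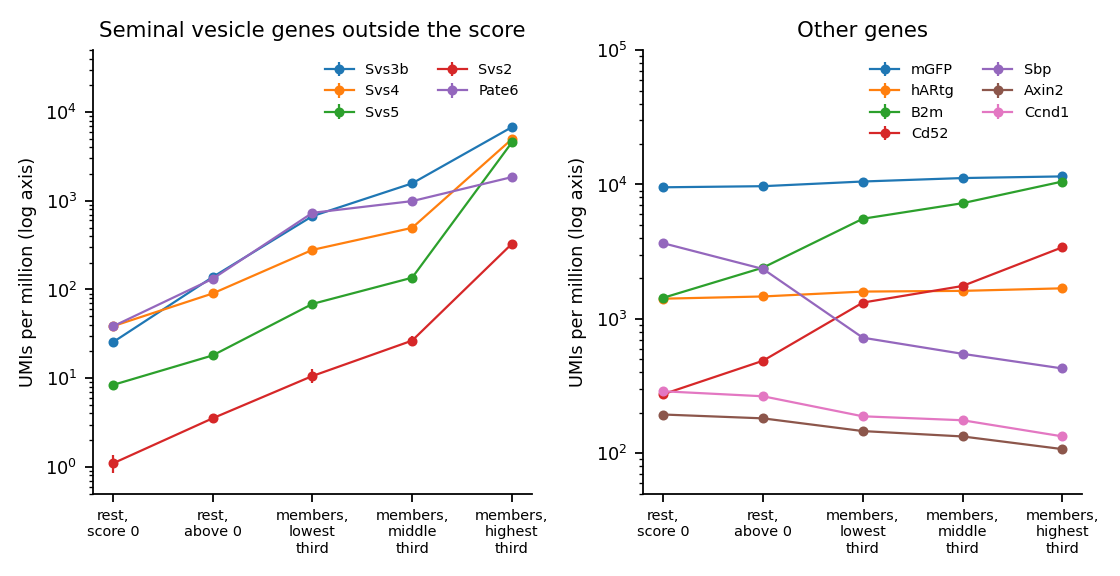
Summed level in CPM (log axis) of seminal vesicle genes outside the score (left) and other genes (right) in remaining cells with a score of 0, remaining cells above 0, and members split into 3 groups of 385 by score. Bars are 95% exact Poisson intervals, mostly hidden by the points. Svs5 climbs from 8.38 to 4556 CPM and B2m from 1433 to 10513 CPM, hARtg stays between 1412 and 1686 CPM, and Axin2 declines from 194 to 107 CPM.

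Set 1 had few cells at or above the score limit. Of its 3121 gated cells 45 (1.44%) reached the lowest member score, too few for the planned comparison, which required 50. A Spinkl UMI was held by 40 of these 45 cells, but Pate4 by 13 and any of Svs2 to Svs6 by 8. Depth was higher in set 1, with a median of 27211 UMIs per gated cell. Its gated cells together held 94148170 UMIs, yet 64 UMIs of Pate4, 7 of Svs4, 1 of Svs3b, 2 of Svs3a, 0 of Svs5, 3 of Svs6, 19 of Svs2 and 3 of Sva were found in them. Ceacam10 had 1172 UMIs and Spinkl 7814, or 83.0 CPM. hARtg was found in 44.6% of gated cells of set 1 and 96.6% of those of set 2. With 1 library per set, a difference between the sets and a difference between tissues or animals cannot be told apart.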

How the data were processed

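Tissue was dissociated and 3' libraries were made with 10x v2 chemistry. Per the labels and the study's methods, the authors counted UMIs with Cell Ranger 3.1.0 on mm10 with hARtg and mGFP sequences added, and left out likely empty droplets and multiplets and cells with much mitochondrial RNA. Deposited by the authors was the natural log of 1 plus the UMIs per 10000 for each gene and cell. Back-transformed values summed to 10000 in each of 15742 cells, and division by the value of 1 UMI gave whole UMIs for 100% of values above 0 (tolerance 0.01 UMI, or 0.01% above 100 UMIs).

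Levels are summed UMIs per 1000000 UMIs (CPM). List medians and gene counts leave out genes under 10 CPM on both sides, while ratios shown by position and for the Pate family do not. In ratios a sum of 0 was set to 3 UMIs. Intervals (95%) are exact Poisson for levels, Clopper-Pearson for shares and conditional binomial for ratios, and cover counting error only. With 1 library per group no test was made. The ratio code was tested on simulated data. Named genes were those of fixed lists plus the 15 highest and 15 lowest log2 ratios of members over remaining cells after adding 10 CPM to each among genes with at least 50 CPM on either side. Members and lists were chosen with earlier results of these data known. Alternatives changed the share, gate, score genes, depth, doublet limit, cell weight, scaling and filter. No doublet caller was run. Python 3.11.15, numpy 2.4.6 and scipy 1.17.1 were used. The 2 features ARQ and EGFP were read as hARtg and mGFP from their names. The supplied NCBIM37 genome is another build and was not used. Some genes of the fixed lists are not reported here.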

Additional observations from a re-analysis of the deposited data

Results flagged for a closer look

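Spinkl had its highest level in cells outside the comparison. In the 45 gated cells of set 1 at or above the lowest member score it reached 3991 CPM, against 22.6 CPM in the 1155 members. Spinkl is part of the score, so its level in these 45 cells was set in part by how they were picked, and over all 3121 gated cells of set 1 it stood at 83.0 CPM. Of these 45 cells 40 held a Spinkl UMI, with a median of 80 and a highest value of 1850 UMIs, 23 held Ceacam10, 13 held Pate4 and 8 held any of Svs2 to Svs6. No test was possible with 1 library.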

How the results depend on the processing

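Each value has 1 library behind it, so replicate error is unknown, and depth limits genes of few UMIs. No paired analysis over replicates was possible, because members and remaining cells both came from 1 library. In all, 17 alternatives were run, 3 of them (hARtg-high cells, no shared barcodes, no highest scorers) chosen after seeing the data. For 83 genes, 807 values stayed within their counting interval, 588 moved beyond it in the same direction and 16 changed sign. Deep cells are those over 2 times the median UMIs and hARtg-high cells hold 5 or more hARtg UMIs. The rule is the score. The number of members went from 1155 to 770 in the top 10%, 1540 in the top 20%, 933 without deep cells and 1039 without the highest scorers. The median log2 ratio of seminal vesicle secretory genes outside the rule went from 4.95 to 4.99 in the top 10%, 5.10 in the top 20%, 3.38 without Pate4 in the score, 3.84 without Ceacam10, 4.82 without Sva, 5.24 thinned, 4.86 depth-matched, 5.73 without deep cells, 5.27 with equal cell weights, 4.81 unfiltered, 4.88 in hARtg-high cells and 4.41 without the highest scorers. The median log2 ratio of prostate secretory genes went from -2.12 to -1.61 in the top 10%, -2.17 in the top 20%, -2.06 with Krt5 at 0, 0.22 without Pate4 in the score, -2.20 without Ceacam10, -0.99 thinned, -1.39 depth-matched, -2.31 without deep cells, -1.84 with equal cell weights, -1.93 unfiltered, -1.17 in hARtg-high cells and -2.06 without the highest scorers. The median log2 ratio of Wnt targets went from -0.69 to -0.25 without Pate4 in the score, -0.96 without deep cells and -0.87 with equal cell weights. The median log2 ratio of secretory machinery genes went from 0.17 to 0.25 thinned, 0.24 without deep cells, 0.24 with equal cell weights, 0.19 rescaled and 0.20 in hARtg-high cells. The log2 ratio of hARtg went from 0.18 to 0.16 in the top 20%, 0.084 without Pate4 in the score, 0.16 without Sva, 0.19 depth-matched, 0.20 with equal cell weights, 0.20 rescaled and 0.091 in hARtg-high cells. The log2 ratio of mGFP went from 0.20 to 0.22 in the top 10%, 0.19 with Krt5 at 0, 0.045 without Pate4 in the score, 0.21 without Ceacam10, 0.19 without Sva, 0.24 depth-matched, 0.25 without deep cells, 0.22 rescaled and 0.13 in hARtg-high cells. The genes at least 2-fold higher in members went from 86 to 33 without Pate4 in the score, 925 unfiltered and 49 at 50 CPM. The genes at least 2-fold lower in members went from 96 to 4 without Pate4 in the score, 157 thinned, 154 without deep cells, 167 with equal cell weights, 1630 unfiltered and 22 at 50 CPM. The log2 ratios of single genes that changed sign were 9530003J23Rik at -0.43 without the highest scorers. Thinned, they were Hoxa9 at 0.039 and Tgm4 at 0.090. Without Pate4 in the score they were Hoxa11 at -0.037, the log2 ratio of Hoxb13 at 0.026, Tgm4 0.45, Msmb 0.56, Sbp 0.22, Sbpl 0.41, Defa20 0.13, the log2 ratio of H2-K1 at -0.0021, Ly6d -0.086, Gpx3 -0.10 and 9530002B09Rik 0.14. Tgm4 was at 0.21 with equal cell weights and 0.79 in hARtg-high cells. The cause was not tested.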
